A study of Mus musculus with 15 samples.

Results

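The solute carriers were taken from the transcript profiles of 5 sorted mouse cell populations as every gene symbol that began with Slc and a digit, with 1 symbol left out, which gave 167 of the 10222 symbols listed, in 41 families and with 193 transcripts. Levels were given as RPKM, read counts normalised to transcript length and to the mapped reads of the library, and were summed over the transcripts of a symbol. Cells came from C57BL/6 mice heterozygous for an Il33-citrine reporter allele, were sorted ex vivo by flow cytometry, and were profiled as 3 libraries of each population. The 2 white adipose tissue (WAT) stromal populations, Il33+ WAT-MSC and Il33- WAT-MSC, lacked lineage markers, CD45, Epcam, CD31 and CD24, carried PDGFRα, CD34, podoplanin and Sca1, were split by citrine, and came from mesenteric fat per the labels. Lung Il33+ MSC were the citrine+ cells of a lung stromal gate, WAT endothelial cells were Lin-CD45-Epcam-CD31+, and lung epithelial cells were Lin-CD45-Epcam+. All populations shared the reporter strain, no treatment is named in the labels, and the ages of the mice were not given in the sources used here. Citrine stood for Il33 expression in the stromal gates, and the epithelial gate did not divide the cell types of the lung epithelium.

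Solute carriers are membrane proteins that move amino acids, sugars, nucleosides, vitamins, metals and ions across the plasma membrane and across the membranes of mitochondria, lysosomes and the Golgi apparatus, mostly by coupling one solute to the gradient of another. A family number groups proteins by sequence, and its members often carry related solutes in different cells. Epithelia place different carriers on the apical and basal faces and drive many of them with the sodium gradient set by the Na+/K+-ATPase, whereas stromal cells have no such faces.

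The libraries held 42711843 to 60773158 alignments. The sorted populations carried their markers: Epcam lay at 25.9 to 39.8 RPKM in the epithelial libraries and at or below 0.28 elsewhere, and Pecam1 at 145 to 198 RPKM in the endothelial libraries and at or below 19.1 elsewhere. Some signal of other cells was present, since 10 stromal markers summed to 2120 to 4356 RPKM in the endothelial libraries against 6439 to 8426 in Il33+ WAT-MSC. Endothelial replicate 1 stood apart, with 20 members listed at 0 against 4 and 5 in the other endothelial libraries. Il33- WAT-MSC replicate 1 did so too, with 15 members listed at 0 against 5 and 4, and a members' sum of 1106 RPKM against 1524 and 1500. The low sum was not particular to the members. All genes summed to 134069 RPKM there against 174718 and 179844, and the members' share was 0.825% against 0.872% and 0.834%. In the epithelial libraries 57.7% to 62.9% of the summed RPKM was Scgb1a1, the club cell secretory protein, and lung libraries of replicates 2 and 3 shared a sequencing lane with replicate 3 of the WAT populations.

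The largest contrast among solute carriers lay between epithelium and stroma, with calls in both directions within families. Of 155 members tested between lung epithelial cells and lung Il33+ MSC, 50 were higher and 39 lower in epithelium. Together this is 57.4% against 43% of all genes tested. A higher member and a lower one were held by 16 of the 30 families with 2 or more members. How many such families the call rates alone would give was not tested. The 3 comparisons among WAT and stromal populations called 1, 5 and 2 members, shares of 0.775%, 3.73% and 1.48% that lay below the 1.57%, 6% and 3.9% of all genes tested.

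The 4 promoters printed next belong to members with large differences in these contrasts, though not always the largest: Slc26a9 and Slc44a3, high in epithelium, Slc10a6, high in stroma, and Slc1a3, high in lung Il33+ MSC. They are the 250 bases before the transcription start, read 5′ to 3′ on the gene's strand from RefSeq on GRCm38.p6, the build named mm10 in the submitters' processing notes. Capitals mark the TATA box letters TATAAA, the CCAAT box, the GC box letters GGGCGG or the forkhead letters TGTTTAC on either strand, and the TATAAA matches of Slc26a9 overlap each other.
Slc26a9, chr1:131743772-131744021, + strand: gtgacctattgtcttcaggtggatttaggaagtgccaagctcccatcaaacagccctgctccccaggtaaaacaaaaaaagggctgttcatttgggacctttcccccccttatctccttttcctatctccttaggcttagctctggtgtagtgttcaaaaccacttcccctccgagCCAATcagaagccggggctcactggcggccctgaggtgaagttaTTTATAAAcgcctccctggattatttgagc
Slc44a3, chr3:121532345-121532594, - strand: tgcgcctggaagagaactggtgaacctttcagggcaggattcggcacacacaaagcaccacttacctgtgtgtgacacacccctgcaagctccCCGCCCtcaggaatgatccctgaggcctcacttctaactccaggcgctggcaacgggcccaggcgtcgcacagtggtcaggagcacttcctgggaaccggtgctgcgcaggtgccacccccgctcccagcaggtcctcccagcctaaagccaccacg
Slc10a6, chr5:103629404-103629653, - strand: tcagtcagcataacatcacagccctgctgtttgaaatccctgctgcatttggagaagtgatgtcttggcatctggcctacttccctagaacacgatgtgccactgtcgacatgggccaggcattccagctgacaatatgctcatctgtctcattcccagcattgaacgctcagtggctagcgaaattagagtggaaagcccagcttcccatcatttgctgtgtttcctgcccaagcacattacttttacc
Slc1a3, chr15:8710808-8711057, - strand: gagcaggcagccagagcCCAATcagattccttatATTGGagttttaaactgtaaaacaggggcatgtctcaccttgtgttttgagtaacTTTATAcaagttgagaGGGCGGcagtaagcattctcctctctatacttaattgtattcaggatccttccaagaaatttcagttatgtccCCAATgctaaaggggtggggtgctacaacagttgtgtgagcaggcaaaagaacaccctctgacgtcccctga
The 4 sequences differed in these letters: Slc26a9 held TATAAA close to the start and 1 CCAAT, Slc44a3 held 1 GGGCGG, Slc1a3 held CCAAT 3 times beside 1 TATAAA and 1 GGGCGG, and Slc10a6 held none of the 4. Of the 167 members, 129 had a promoter in the RefSeq table, with 168 starts, and Slc39a4, which had the largest rise in epithelium, had none. GGGCGG stood in 62.5% of these windows, in 57.9% of the windows of all listed genes and in 32.7% of all windows in the table. TATAAA stood in 5.36% of the members' windows and 6.85% of those of listed genes, and the shares for CCAAT were 32.1% and 34.4%. TGTTTAC stood in 0 of the members' windows and in 2.13% of those of listed genes.

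Solute carriers made up little of the transcriptome of any population, and their total hid a change in which members carried it. The summed RPKM of all 167 members was 1346 ± 54.6 in Il33+ WAT-MSC, 1377 ± 235 in Il33- WAT-MSC, 1333 ± 4.04 in lung Il33+ MSC, 1135 ± 193 in WAT endothelial cells and 1150 ± 158 in lung epithelial cells (SD, n = 3). This was 0.717% to 0.845% of all RPKM in the 4 populations other than epithelium and 0.382% in epithelium. There Scgb1a1 alone took 57.7% to 62.9% of all RPKM, which lowers the share of every other gene. After median-ratio scaling the members' sum was 1331 ± 76.2 in epithelium and 1129.5 to 1209.1 in the other means (SD, n = 3). The 10 members with the highest mean held 38.5% to 47.1% of the members' total in the stromal and endothelial populations and 16.9% in epithelium. They were ranked on the mean over the 5 populations, 4 of them not epithelial, so a smaller share in epithelium was in part built in. A mean of at least 1 RPKM was reached in all 5 populations by 101 members, and a mean of at least 10 RPKM by 9.

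Slc43a3, a carrier of purine nucleobases, was the most abundant member. It lay at 257, 247 and 323 RPKM in Il33+ WAT-MSC, at 158, 242 and 224 in Il33- WAT-MSC, at 271, 263 and 272 in lung Il33+ MSC, at 142, 131 and 167 in endothelial cells and at 23.00, 24.6 and 34.99 in epithelial cells. The stromal and endothelial libraries all lay above the epithelial ones, and Slc43a3 alone made up 20.4% of the members' total in Il33+ WAT-MSC and 2.40% in epithelium. Slc25a3, the mitochondrial phosphate carrier, came next and kept a similar mean in every population, at 56.9 ± 6.90, 48.5 ± 7.63, 55.01 ± 4.67, 60.1 ± 17.1 and 55.4 ± 2.79 RPKM in the same order of populations (SD, n = 3), differences that lay within the spread between libraries. Slc38a2, a sodium-coupled importer of small neutral amino acids, had means of 46.9 to 51.1 RPKM outside epithelium and 18.9 ± 6.67 in it. Slc10a6, Slc25a4, Slc1a5, Slc3a2, Slc39a1 and Slc44a1 were also among the 10 highest. Each had its lowest mean in epithelium, though the ranking rested mostly on the other populations.

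**Figure D1:**
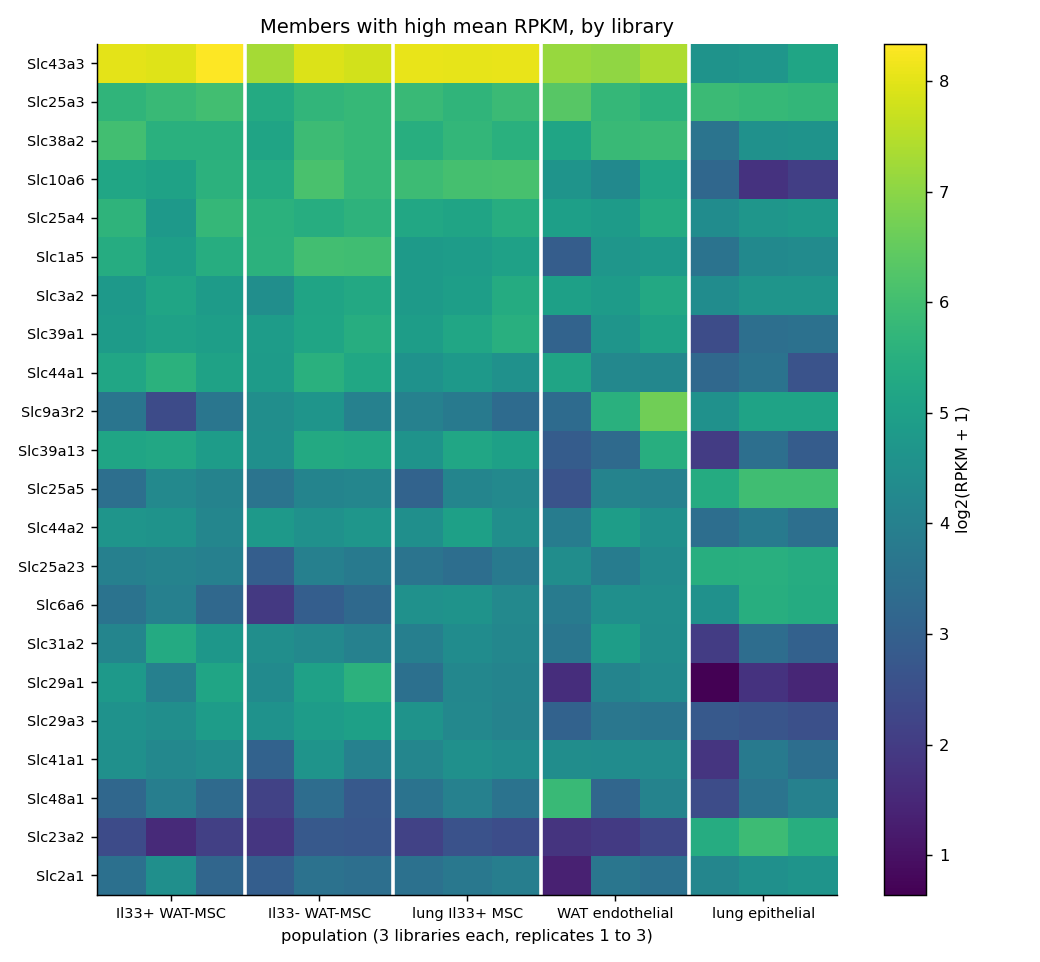
Members with the highest mean RPKM, apart from those not reported here (rows), in the 15 libraries (columns, replicates 1 to 3 of each population), coloured by log2(RPKM + 1). Slc43a3 is the brightest row in the first 4 populations, Slc25a3 keeps its colour in all 5, and Slc25a5, Slc25a23 and Slc23a2 are brightest in lung epithelial cells.

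By class of substrate, the epithelial libraries had lower summed RPKM for amino acid and nucleoside carriers and higher sums for vitamin, choline and mitochondrial carriers. As a share of all RPKM, which Scgb1a1 dominates in epithelium, the higher sums did not stand out: mitochondrial carriers made up 0.10045% in epithelium and 0.112% to 0.142% in the other populations, and vitamin and choline carriers 0.0379% against 0.0306% to 0.0423%. After median-ratio scaling their sums were higher again, at 351 ± 22.2 in epithelium against 189 to 206 for mitochondrial carriers and 134 ± 20.9 against 51.5 to 61.0 for vitamin and choline carriers (SD, n = 3). The 23 amino acid carriers summed to 453 ± 46.2 RPKM in Il33+ WAT-MSC, 418 ± 96.0 in Il33- WAT-MSC, 447 ± 17.3 in lung Il33+ MSC, 307 ± 42.8 in endothelial cells and 175 ± 21.4 in epithelial cells (SD, n = 3). Slc43a3 sits in this class by its family number and accounted for most of that gap: without it the sums were 177 ± 18.7, 210 ± 51.8, 178 ± 18.5, 160 ± 30.7 and 147 ± 15.1 RPKM. The 8 vitamin and choline carriers summed to 106, 128 and 109 RPKM in the epithelial libraries and to 46.7 to 76.1 RPKM in the other 12, so the groups did not overlap. Slc23a2 alone held 41.6, 59.3 and 43.7 RPKM of the epithelial sums and 1.96 to 5.99 of the others. Without it the epithelial sums overlapped those of Il33+ WAT-MSC. The 26 members of the mitochondrial family summed to 258, 324 and 326 RPKM in epithelium against 187 to 246 RPKM elsewhere. The 4 nucleoside carriers summed to 8.45 to 12.5 RPKM in epithelium and to 14.9 to 78.7 RPKM elsewhere. Metal carriers overlapped between populations, at 143 ± 34.97 RPKM in epithelium and 178 to 206 RPKM in the other means. The nucleotide sugar sum of 152 RPKM in lung Il33+ MSC replicate 1, against 75.0 and 72.8 in the other lung libraries, came from Slc35e1, an orphan member at 81.1 RPKM there and at 6.07 and 6.69 in the others.

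**Figure D2:**
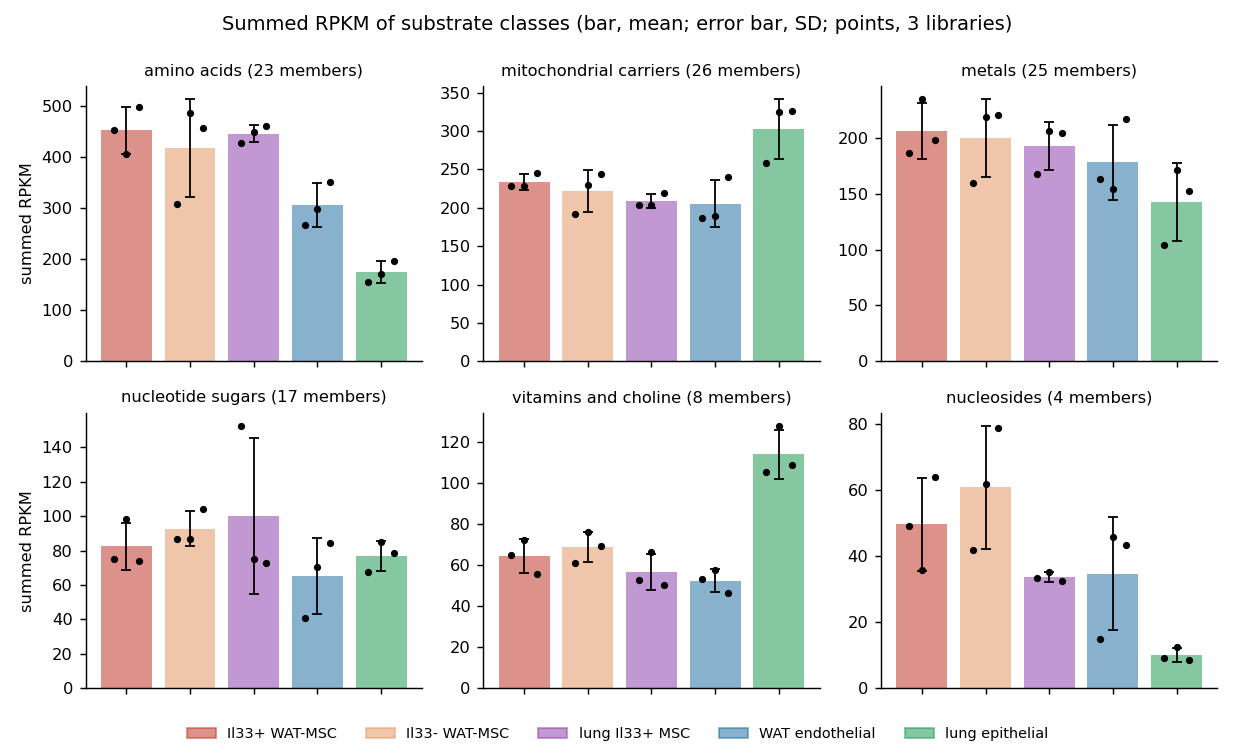
Summed RPKM of 6 substrate classes (y axis) in the 5 populations. Bars are means, error bars the SD and points the 3 libraries; the vitamin and choline carriers of lung epithelial cells lie above all other libraries and the nucleoside carriers below them.

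The comparison of lung epithelial cells with lung Il33+ MSC addressed which carriers set epithelium apart from stroma within 1 organ. In limma fits on log2(RPKM + 1), 43% of all genes tested passed the 0.05 threshold after Benjamini-Hochberg adjustment, 18.5% higher and 24.4% lower in epithelium. Among the members, 89 of 155 passed, which is 57.4%, and 66 did not; 12 members were too low to be tested. The median absolute log2 fold change was 1.00 among members and 0.72 over all genes. Whether any substrate class departed from the shares of all genes was not tested. In bulk libraries, fewer cells of a type and less RNA per cell cannot be told apart. All 89 had the same sign in both lanes. For the 88 of them whose libraries did not overlap no other outcome was possible, so this tells nothing about the lane. Under each of the alternatives that could be fitted 62 passed, 37 higher and 25 lower. Scaling by median ratios moved the median of all genes by 0.28 on the log2 scale, and with it the members split into 56 higher and 28 lower and all genes into 2310 higher and 1807 lower, from 1734 and 2285 without it. Macrophage markers summed to 721 to 1381 RPKM in the epithelial libraries and 184 to 236 in lung Il33+ MSC, and 10 epithelial markers to 183 to 550 RPKM in lung Il33+ MSC. Most of the difference in the macrophage marker sum was Lyz2, at 658 to 1301 RPKM in epithelium and 105 to 145 in lung Il33+ MSC. Chil3, at 41.02 to 48.08 and 33.7 to 56.93 RPKM, overlapped between them, as did Cd68, Ear1, Marco, Mrc1 and Csf1r. The part of macrophages, and of epithelial cells among lung Il33+ MSC, in the member levels was not tested.

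Among the carriers of metals, 5 were higher and 11 lower in epithelium, of 24 tested (6 and 7 after median-ratio scaling). Over all genes the shares were 18.5% and 24.4%, and the counts after scaling 2310 and 1807 of 9348. The sharpest opposition lay within the SLC39 zinc importers. Slc39a4, the zinc importer best known from the intestinal epithelium, lay at 34.6, 33.2 and 32.2 RPKM in the epithelial libraries and at or below 0.85 RPKM in the 12 others. Its log2 fold change over lung Il33+ MSC was 4.78 (SE 0.25, limma adjusted p = 1.24e-06), the largest rise among members in this comparison. Slc39a8, another zinc importer, was higher by 1.13 (SE 0.35, limma adjusted p = 0.026), with 2.58 to 4.79 RPKM in epithelium and 0.41 to 1.86 in lung Il33+ MSC. Their relatives ran the other way. Slc39a1, at 4.37, 10.0 and 10.5 RPKM in epithelium and 29.2, 35.95 and 44.6 in lung Il33+ MSC, fell by 2.08 (SE 0.32, limma adjusted p = 0.000659). Slc39a13, a zinc carrier of the early secretory pathway needed in connective tissue, lay at 2.99, 10.1 and 6.41 RPKM against 23.2, 35.5 and 31.5 and fell by 2.15. Slc39a6, Slc39a7 and Slc39a14 were lower as well, Slc39a7 with overlapping libraries. All 3 members of the SLC41 magnesium family were lower in epithelium, Slc41a3 the most, at 0.13, 1.07 and 0.57 RPKM against 7.06, 8.07 and 10.8. Slc11a2, the divalent metal importer, was higher, at 8.78, 15.1 and 14.8 RPKM against 6.31, 5.52 and 7.21 (log2 fold change 0.89, SE 0.27, limma adjusted p = 0.0235). The copper family split, with the plasma membrane importer Slc31a1 higher by 0.80 and Slc31a2 lower by a log2 fold change of -1.37. Several of these calls did not hold in smaller groups, with the same direction throughout. The calls of Slc11a2 (adjusted p = 0.0602 to 0.0891) and Slc31a1 (0.0696 to 0.117) were lost without epithelial replicate 2 or 3 or lung replicate 1 or 2, that of Slc39a8 without epithelial replicate 2 or 3 or lung replicate 2 (0.0697 to 0.113), that of Slc39a7 without epithelial replicate 1 or 3 or lung replicate 1 or 2 (0.0756 to 0.102), that of Slc41a1 without any 1 of the lung libraries (0.0703 to 0.11), and that of Slc41a2 without epithelial replicate 1 or 2 or lung replicate 2 or 3 (0.0539 to 0.105). With all 15 libraries in one fit Slc11a2 (adjusted p = 0.201), Slc39a8 (0.0941) and Slc31a1 (0.0647) did not pass. After median-ratio scaling Slc39a7 (adjusted p = 0.078) and Slc41a1 (0.0505) did not pass either.

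Among choline and vitamin carriers 5 were higher and 2 lower of 8, beside 18.5% and 24.4% of all genes. The SLC44 family of choline transporter-like proteins divided evenly. Slc44a3 lay at 30.3, 23.98 and 30.2 RPKM in epithelium and at 0.02 to 3.26 RPKM in the 12 other libraries (log2 fold change over lung Il33+ MSC 3.95, SE 0.25, limma adjusted p = 2.71e-06). Slc44a4, a carrier of thiamine pyrophosphate, lay at 7.79, 7.47 and 7.94 RPKM and was listed at 0 in 10 of the other 12 libraries, the exceptions being 0.26 and 0.01. The choline transporter Slc44a1 was at 8.38, 10.9 and 5.05 RPKM in epithelium and 22.6, 27.2 and 22.3 in lung Il33+ MSC, and Slc44a2 at 9.65, 13.2 and 9.88 against 21.0, 31.2 and 20.9. Both fell, by 1.51 and by 1.08 on the log2 scale. The vitamin C family did not divide: Slc23a2, at 41.6, 59.3 and 43.7 RPKM against 3.43, 4.99 and 4.47, and Slc23a1, at 4.39, 6.37 and 7.92 RPKM against 0.26, 0.14 and 0.48, were both higher in epithelium, by 3.21 and 2.46.

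**Figure D3:**
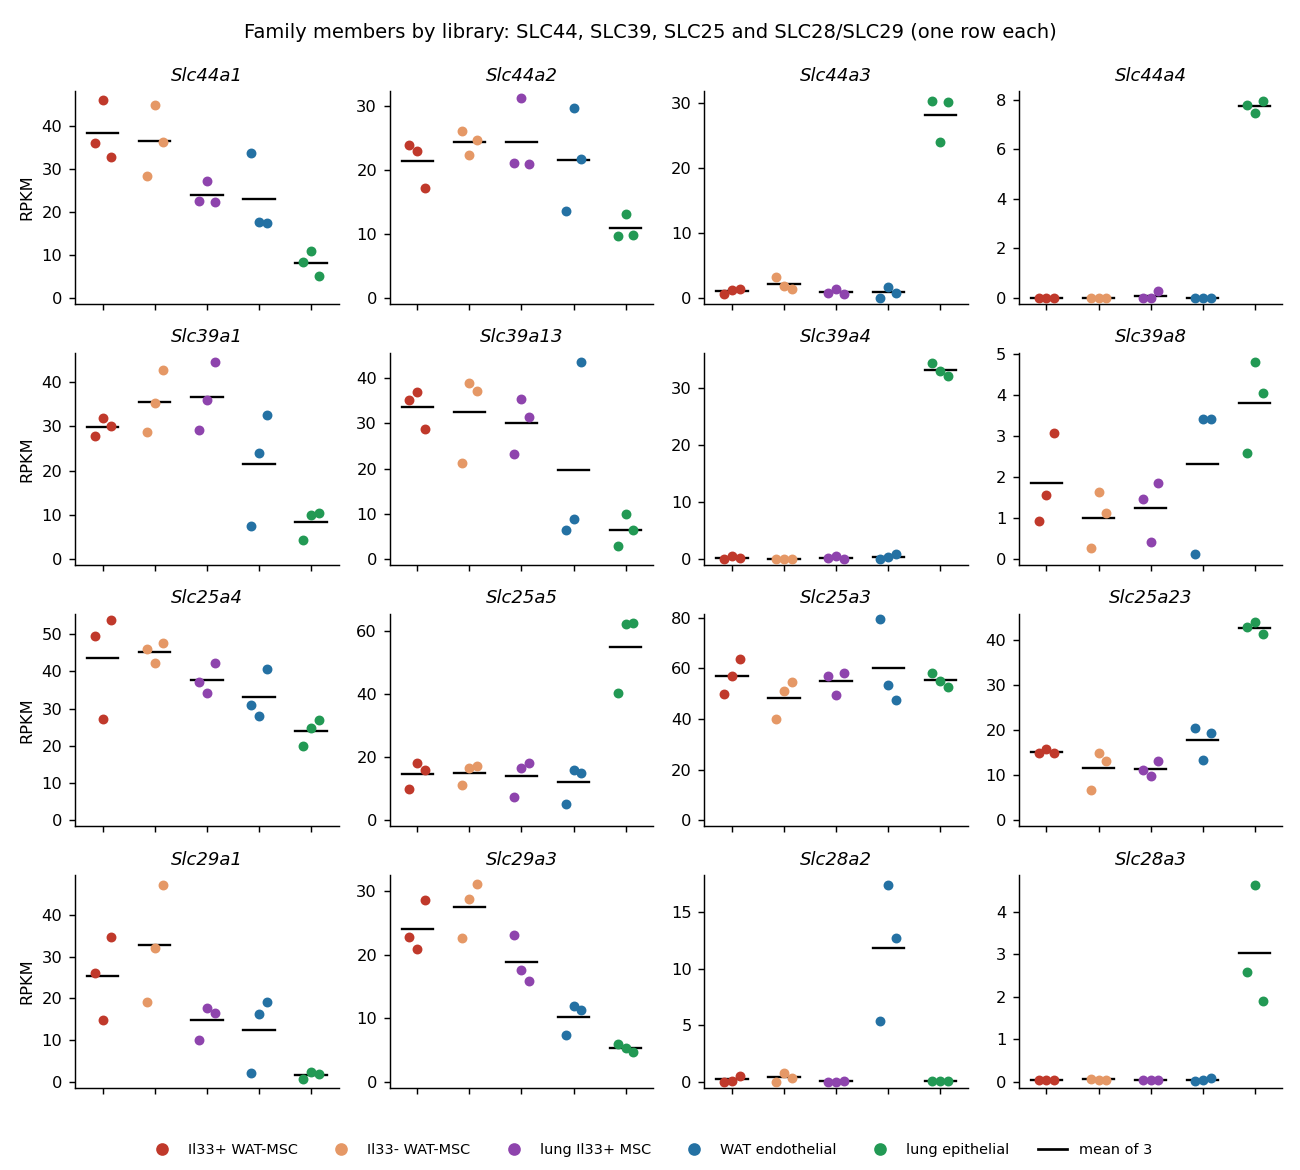
RPKM (y axes, each from 0) of 4 members of the SLC44, SLC39, SLC25 and SLC28/SLC29 families in 15 libraries; points are libraries and lines means of 3. In each row some members are highest in lung epithelial cells (green) and others in stromal cells, while Slc25a3 lies between 39.9 and 79.5 RPKM and Slc28a2 is high in endothelial cells (blue).

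Of the ion carriers, 6 were higher and 4 lower of 17 tested, beside 18.5% and 24.4% of all genes. Slc26a9, a chloride transporter of airway epithelium, lay at 16.1, 14.6 and 22.2 RPKM in epithelium and at or below 0.53 RPKM in all other libraries (log2 fold change 3.69, SE 0.27, limma adjusted p = 5.7e-06). Slc4a5, an electrogenic sodium bicarbonate cotransporter, was at 12.8, 22.96 and 19.5 RPKM against 0.27, 0.05 and 0.13 in lung Il33+ MSC (log2 fold change 4.04, SE 0.29). Its relative Slc4a4, also a sodium bicarbonate cotransporter, went the other way, at 2.77, 3.77 and 3.60 RPKM against 10.5, 8.07 and 6.30 (log2 fold change -1.07, SE 0.27, limma adjusted p = 0.0096). The cation chloride cotransporters Slc12a2 and Slc12a7 were higher by 2.31 and 2.51. Slc9a3r1, a PDZ scaffold that binds carriers at the apical membrane and carries no solute itself, was at 3.26, 25.2 and 13.3 RPKM against 0.22, 0.24 and 0.91 (log2 fold change 3.04, SE 0.58, limma adjusted p = 0.00231).

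Carriers of amino acids were called in equal number, 6 higher and 6 lower of 19, again within families. The shares of all genes were 18.5% higher and 24.4% lower. Slc1a4, a neutral amino acid exchanger, lay at 19.2, 15.8 and 22.7 RPKM in epithelium and 1.22, 1.82 and 2.89 in lung Il33+ MSC (log2 fold change 2.79, SE 0.28, limma adjusted p = 4.41e-05). Its paralogue Slc1a5, the main glutamine exchanger of this family, lay at 11.02, 18.5 and 19.7 against 27.7, 28.7 and 32.0 RPKM and was lower by a log2 fold change of -0.85 (SE 0.25, limma adjusted p = 0.0226), a call lost after median-ratio scaling (adjusted p = 0.0592), quantile normalization (0.122), with all 15 libraries in one fit (0.107) and without lung replicate 2 or 3 (0.0637 and 0.0698). Slc38a1 and Slc38a2 formed the same kind of pair, with Slc38a1 at 9.27, 7.24 and 5.89 RPKM in epithelium and at most 0.08 in lung Il33+ MSC, and Slc38a2 at 11.2, 22.03 and 23.4 against 43.5, 52.4 and 44.8. In SLC43 the neutral amino acid carrier Slc43a2 was higher by 2.02 while Slc43a1, at 0.03, 0.23 and 0.20 RPKM against 19.2, 13.3 and 13.9, had the largest fall of any member (log2 fold change -3.82, SE 0.27, limma adjusted p = 4.71e-06). Slc43a3 followed the latter at -3.26 (SE 0.22). Cationic amino acid carriers split between Slc7a2, higher by 1.83 at 13.5 to 15.1 RPKM, and Slc7a1, lower at 1.41 to 2.54 RPKM against 4.92 to 9.17. The heavy chain Slc3a2, partner of several SLC7 carriers, did not pass, at 19.9 to 24.03 RPKM against 27.6 to 40.5 (log2 fold change -0.50, SE 0.22, limma adjusted p = 0.0975).

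Among nucleoside carriers the passive members were lower in epithelium and a sodium-driven one was higher. The equilibrative carrier Slc29a1 lay at 0.56, 2.44 and 1.76 RPKM in epithelium and 10.1, 17.6 and 16.4 in lung Il33+ MSC (log2 fold change -2.64, SE 0.36, limma adjusted p = 0.00026), and the lysosomal Slc29a3 at 5.96, 5.34 and 4.72 against 23.1, 17.6 and 15.8. The concentrative carrier Slc28a3 was at 2.59, 4.62 and 1.89 RPKM in epithelium and at or below 0.08 RPKM in all other libraries. Slc10a6, a sodium-coupled carrier of sulfated steroids, was among the most abundant members of stroma and fell furthest after Slc43a1, from 59.8, 65.5 and 67.3 RPKM in lung Il33+ MSC to 8.34, 2.38 and 3.17 in epithelium (log2 fold change -3.68, SE 0.35, limma adjusted p = 3.08e-05).

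Within the mitochondrial family 7 were higher and 3 lower of 25 (9 and 1 after median-ratio scaling). Of all genes tested 18.5% were higher and 24.4% lower, and after scaling 2310 were higher and 1807 lower of 9348. The ADP/ATP carriers changed places: Slc25a5 lay at 40.4, 62.3 and 62.5 RPKM in epithelium and 7.51, 16.5 and 18.3 in lung Il33+ MSC, and Slc25a4 at 20.1, 24.9 and 26.97 against 37.1, 34.1 and 42.3. Slc25a5 was higher by 1.95 (SE 0.34, limma adjusted p = 0.00122), and Slc25a4 was lower by a log2 fold change of -0.64 (SE 0.21, limma adjusted p = 0.0326), a call lost after median-ratio scaling (adjusted p = 0.235), quantile normalization (0.477), with all 15 libraries in one fit (0.0568) and without epithelial replicate 1 or 2 or any 1 of the lung libraries (0.052 to 0.0987). Of the calcium-regulated ATP-Mg/phosphate carriers, Slc25a23 was higher, at 42.9, 43.9 and 41.4 RPKM against 11.3, 9.74 and 13.1, whereas Slc25a24 and Slc25a25 were lower, the latter not after median-ratio scaling (adjusted p = 0.152), with all 15 libraries in one fit (0.159) nor without epithelial replicate 2 or lung replicate 2 or 3 (0.0607 to 0.0791).

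Carriers of fuels gave a mixed picture. Among monocarboxylate carriers 4 were higher and 2 lower of 9, beside 18.5% and 24.4% of all genes. Slc16a7, a carrier of pyruvate and lactate, lay at 24.03, 16.9 and 22.9 RPKM in epithelium and 2.90, 3.02 and 4.76 in lung Il33+ MSC, a log2 fold change of 2.30. The lactate exporter Slc16a3 was higher by 1.26, at 2.31 to 2.44 RPKM. Slc16a1 did not pass, at 1.06, 1.68 and 4.76 RPKM against 1.75, 2.84 and 2.94 (log2 fold change -0.13, SE 0.40, limma adjusted p = 0.824). The glucose carrier Slc2a1 was higher, at 17.2, 21.8 and 23.7 RPKM against 10.4, 12.2 and 14.4 (log2 fold change 0.72, SE 0.23, limma adjusted p = 0.0299). Of the fatty acid carriers, Slc27a1 was higher by 0.84. Without epithelial replicate 2 or 3 or lung replicate 1 or 2 neither Slc2a1 (adjusted p = 0.0845 to 0.0993) nor Slc27a1 (0.0577 to 0.0856) passed, nor did they with all 15 libraries in one fit (0.291 and 0.189). Slc27a2 lay at 2.71 to 3.30 RPKM in epithelium and at most 0.06 elsewhere. The peptide carrier Slc15a2 was at 3.08 to 5.08 RPKM in epithelium and was listed at 0 in 11 of the 12 other libraries. Slc6a14, an amino acid carrier of broad range in SLC6, was at 2.05 to 4.99 RPKM against at most 0.07, while the noradrenaline transporter Slc6a2 and the creatine transporter Slc6a8 were lower.

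**Figure D4:**
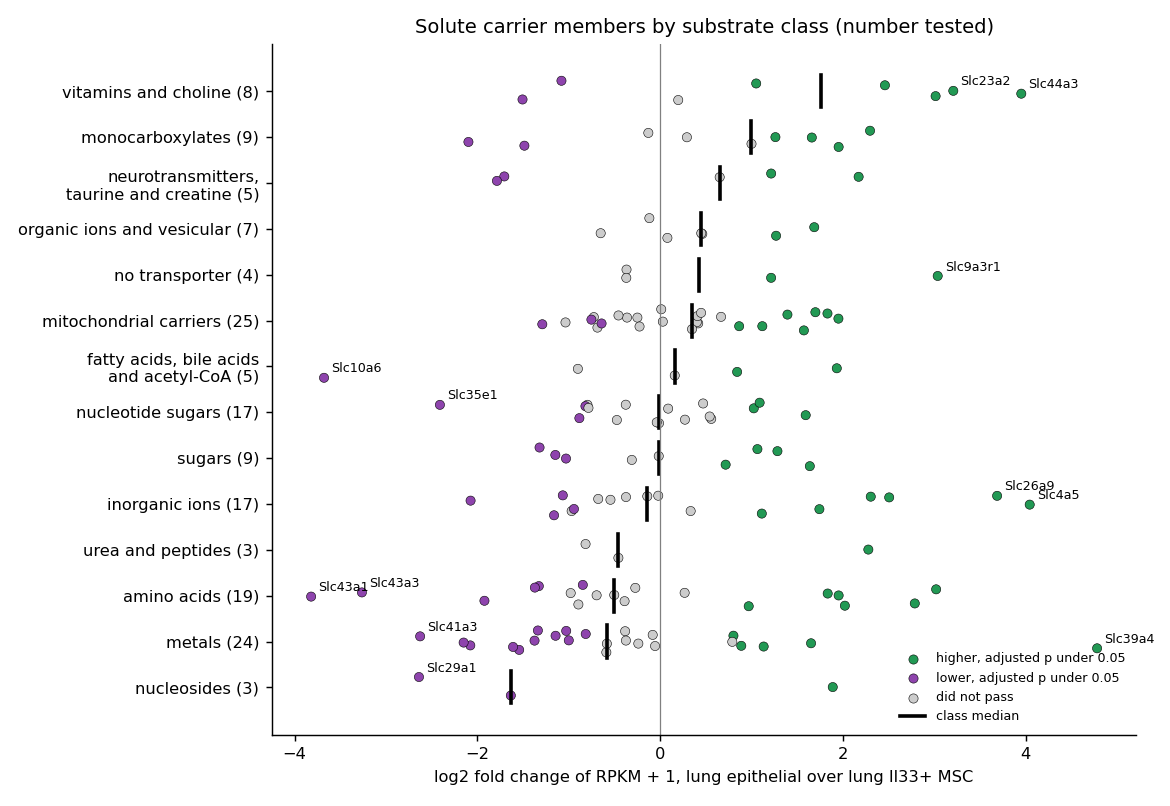
Log2 fold change of RPKM + 1 between lung epithelial cells and lung Il33+ MSC (x axis) for the 155 members tested, by substrate class (y axis); points are members, coloured by call, and bars class medians. Most classes hold calls on both sides of 0, with Slc39a4 at 4.78 and Slc43a1 at -3.82 as the ends.

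The levels in the other populations were set beside these contrasts. Of the 50 members higher in epithelium, 48 had their highest mean of the 5 populations there, and of the 39 lower members 37 had their lowest. These members were called from the same epithelial libraries, so both counts are in part built in. The shares among all called genes were not computed. All 3 epithelial libraries lay above the 12 others for 35 members, 21.0%, against 12.5% of all genes. For Il33- WAT-MSC this was so of 6 members (2% of all genes), namely Slc1a5, Slc7a8, Slc9a9, Slc22a5, Slc24a3 and Slc39a14. It was so of 5 for lung Il33+ MSC (2.96% of all genes), of 2 for WAT endothelial cells (3.75%) and of 1, the zinc importer Slc39a6, for Il33+ WAT-MSC (0.851%).

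The partners of solute carriers were measured beside them, for 22 of 27 listed. In epithelium the Na+/K+-ATPase beta subunit Atp1b1 was higher by 5.01 (SE 0.28), and the beta subunits Atp1b2 and Atp1b3 were lower. Atp1b1 lay at 71.8, 106 and 120 RPKM in epithelium and 3.01, 1.52 and 1.80 in lung Il33+ MSC. Embigin (Emb), a chaperone of Slc16a7, was higher by 4.91, and the sodium channel subunits Scnn1a, Scnn1b and Scnn1g by 4.86, 3.16 and 2.69. Basigin (Bsg), the chaperone of Slc16a1 and Slc16a3, did not pass, at a log2 fold change of -0.35 (SE 0.32, limma adjusted p = 0.411).

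Between Il33+ and Il33- WAT-MSC only 1 solute carrier passed the threshold, and it carries calcium. Of 129 members tested, 1 was called and 128 were not, 0.775% against 1.57% of all genes tested, and 11 members had an unadjusted p under 0.05, as did 11.6% of all genes. The calls do not measure the size of the differences. The median absolute log2 fold change was 0.35 among members and 0.30 over all genes. The median log2 fold change was -0.14 among members, with 47 of the 129 above 0, and -0.0064 over all genes. Slc24a3, a potassium-dependent sodium/calcium exchanger, lay at 3.94, 4.12 and 4.90 RPKM in Il33+ WAT-MSC and at 12.8, 17.7 and 18.2 in Il33- WAT-MSC (log2 fold change -1.68, SE 0.27, limma adjusted p = 0.0102). Its groups did not overlap, and the other populations lay at or below 2.75 RPKM. The call was lost without Il33+ replicate 1 (adjusted p = 0.0523), Il33- replicate 2 (0.0651) or Il33- replicate 3 (0.0663), at log2 fold changes of -1.60 to -1.63. Without Il33- replicate 1, which stood apart, it passed at -1.84 (adjusted p = 0.0121). The groups did not overlap for 23 members, 17.8% against 17.5% of all genes tested, and 3 of those that did not pass, chosen after their values were seen, are given here. Slc6a2, the noradrenaline transporter, lay at 3.63, 4.87 and 6.26 RPKM against 0.42, 1.5 and 1.31 (log2 fold change 1.53, SE 0.37, limma adjusted p = 0.0748). It passed under median-ratio scaling (adjusted p = 0.0438) and quantile normalization (0.0312). Slc7a8, a neutral amino acid exchanger, lay at 5.35, 2.53 and 6.36 RPKM against 6.54, 22.3 and 19.9 (log2 fold change -1.49, limma adjusted p = 0.169), and passed without Il33- replicate 1 (log2 fold change -2.01, adjusted p = 0.0274). The zinc and iron importer Slc39a14 lay at 0.47 to 1.84 RPKM against 3.99 to 4.43 (limma adjusted p = 0.17). Markers of mesothelium summed to 33.1 to 102 RPKM in Il33+ and 20.4 to 29.5 in Il33- libraries, pericyte markers to 29.1 to 35.6 against 5.92 to 12.6, and macrophage markers to 6.65 to 11.3 against 17.6 to 40.5. None of the 3 sums overlapped between the groups, but their members were not uniform. Most of the pericyte difference was Abcc9, at 17.6 to 20.7 RPKM in Il33+ and 1.29 to 1.77 in Il33- libraries. Rgs5 was also higher in Il33+ libraries, whereas Notch3 lay at 0.02 to 0.57 RPKM against 1.17 to 2.56. Lyz2 and Cd68 overlapped between the groups, and the mesothelial marker Wt1 had its higher mean in Il33- WAT-MSC. The part of these 3 cell types in the carrier levels was not tested. Of the partner genes 0 passed limma here, with 4 at an unadjusted p under 0.05.

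Il33+ stroma of fat and lung differed in carriers of calcium, glutamate, peptides and amino acids. Of 134 members tested, 1 was higher and 4 lower in Il33+ WAT-MSC than in lung Il33+ MSC, 3.73% against 6% of all genes tested. Slc1a3, a glutamate and aspartate importer, lay at 0.67, 0.41 and 1.09 RPKM in Il33+ WAT-MSC and at 6.15, 6.87 and 7.41 in lung Il33+ MSC (log2 fold change -2.20, SE 0.28, limma adjusted p = 0.0012), and passed under all 15 alternatives. All 12 libraries outside lung stroma lay at or below 1.61 RPKM. Slc24a3 ran the other way, at 3.94 to 4.90 RPKM in Il33+ WAT-MSC against 0.96, 0.41 and 0.52 in lung (log2 fold change 1.72, SE 0.29, limma adjusted p = 0.00554). Its order over the stromal populations was thus Il33- WAT-MSC, Il33+ WAT-MSC and lung Il33+ MSC, with no overlap between neighbours.

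The other 3 lower members had low levels in both populations. Slc15a3, a lysosomal carrier of peptides and histidine whose span overlaps that of Tmem132a, lay at 0.93, 0.01 and 0.49 RPKM in Il33+ WAT-MSC and 4.99, 5.02 and 2.67 in lung Il33+ MSC (log2 fold change -1.84, SE 0.35, limma adjusted p = 0.0116). The call was lost without lung replicate 1 (adjusted p = 0.0551) or replicate 2 (0.0644). Slc7a2, a carrier of arginine and other cationic amino acids, lay at 0.64 to 0.99 RPKM against 2.82 to 4 (log2 fold change -1.28, SE 0.28, limma adjusted p = 0.0233). The proton-coupled amino acid carrier Slc36a2 was listed at 0 in all Il33+ WAT-MSC libraries and at 1.24, 5.43 and 1.44 RPKM in lung (limma adjusted p = 0.0361). Slc7a2 and Slc36a2 passed in 7 of 14 alternatives each. Of the 6 fits without 1 library, Slc7a2 passed only in that without Il33+ WAT-MSC replicate 2, and the other adjusted p were 0.0547 to 0.0943. Slc36a2 passed only in that without lung replicate 1, and the other adjusted p were 0.0517 to 0.0936. Macrophage markers stood higher in the lung libraries too: 7 of 8 listed markers summed to 184 to 236 RPKM there and 6.65 to 11.3 in Il33+ WAT-MSC, with Chil3 at 33.7 to 56.9 against at most 0.08 and Ear1 at 0 in all Il33+ WAT-MSC libraries. Their part in these 3 results was not tested. Slc16a9, a carnitine carrier, Slc10a6 and the taurine importer Slc6a6 lay close to the threshold, with limma adjusted p of 0.0508, 0.0557 and 0.0711 and log2 fold changes of -0.95, -0.74 and -0.86. Among the partners Atp1b1 was higher by 2.09 in Il33+ WAT-MSC, and Atp1b3, Bsg and Slco2b1 were lower.

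WAT endothelial cells stood out from Il33+ WAT-MSC by a single carrier of purine nucleosides that passed under all 15 alternatives. Of 135 members tested, 2 were higher and 0 lower, 1.48% against 3.9% of all genes tested, and 19 members had an unadjusted p under 0.05, as did 15.4% of all genes. Slc28a2, a sodium-driven concentrative carrier of purine nucleosides, lay at 5.39, 17.4 and 12.8 RPKM in endothelial cells and at 0, 0.08 and 0.54 in Il33+ WAT-MSC (log2 fold change 3.31, SE 0.50, limma adjusted p = 0.00737). No library of the other 4 populations lay above 0.80 RPKM, and without endothelial replicate 1 the log2 fold change was 3.75 (adjusted p = 0.000878). Slc16a13, of the monocarboxylate family, lay at 1.72, 4.52 and 4.63 RPKM against 0.07, 0.08 and 0.19 (log2 fold change 1.98, SE 0.43, limma adjusted p = 0.0399) and passed in 6 of 14 alternatives. Its call was lost without endothelial replicate 2 (adjusted p = 0.152), endothelial replicate 3 (0.0721) or any Il33+ WAT-MSC library (0.166 to 0.202). Without endothelial replicate 1, which stood apart, 4 members passed, Slc12a7 and Slc9a3r2 being added to these. Slc12a7, a potassium chloride cotransporter, was at 41.3, 6.95 and 6.58 RPKM against 1.28, 2.16 and 0.43. Its log2 fold change was 2.65 with all libraries (SE 0.68, limma adjusted p = 0.0801) and 1.83 without that library (adjusted p = 0.0403). Slc9a3r2, a PDZ scaffold, lay at 9.08, 45.6 and 102 RPKM against 11.3, 4.25 and 11.7 (limma adjusted p = 0.255, and 0.00901 without endothelial replicate 1). The riboflavin carrier Slc52a3 lay at 3.18, 2.84 and 1.48 RPKM against at most 0.23 (limma adjusted p = 0.0589). Slc29a3 and Slc43a3 had lower endothelial levels without passing, at log2 fold changes of -1.18 and -0.90 (limma adjusted p = 0.0829 and 0.115). The stromal markers in the endothelial libraries, given above, were accompanied by 5 pericyte markers, at 178 to 245 RPKM against 29.1 to 35.6 in Il33+ WAT-MSC, and 7 mesothelial markers, at 49.0 to 177 against 33.1 to 102. Their part in these results was not tested. Of the partners, the water channel Aqp1 was higher by 4.23 (SE 0.31), at 104 to 184 RPKM, and the prostaglandin carrier Slco2a1 by 2.99 (SE 0.29).

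**Figure D5:**
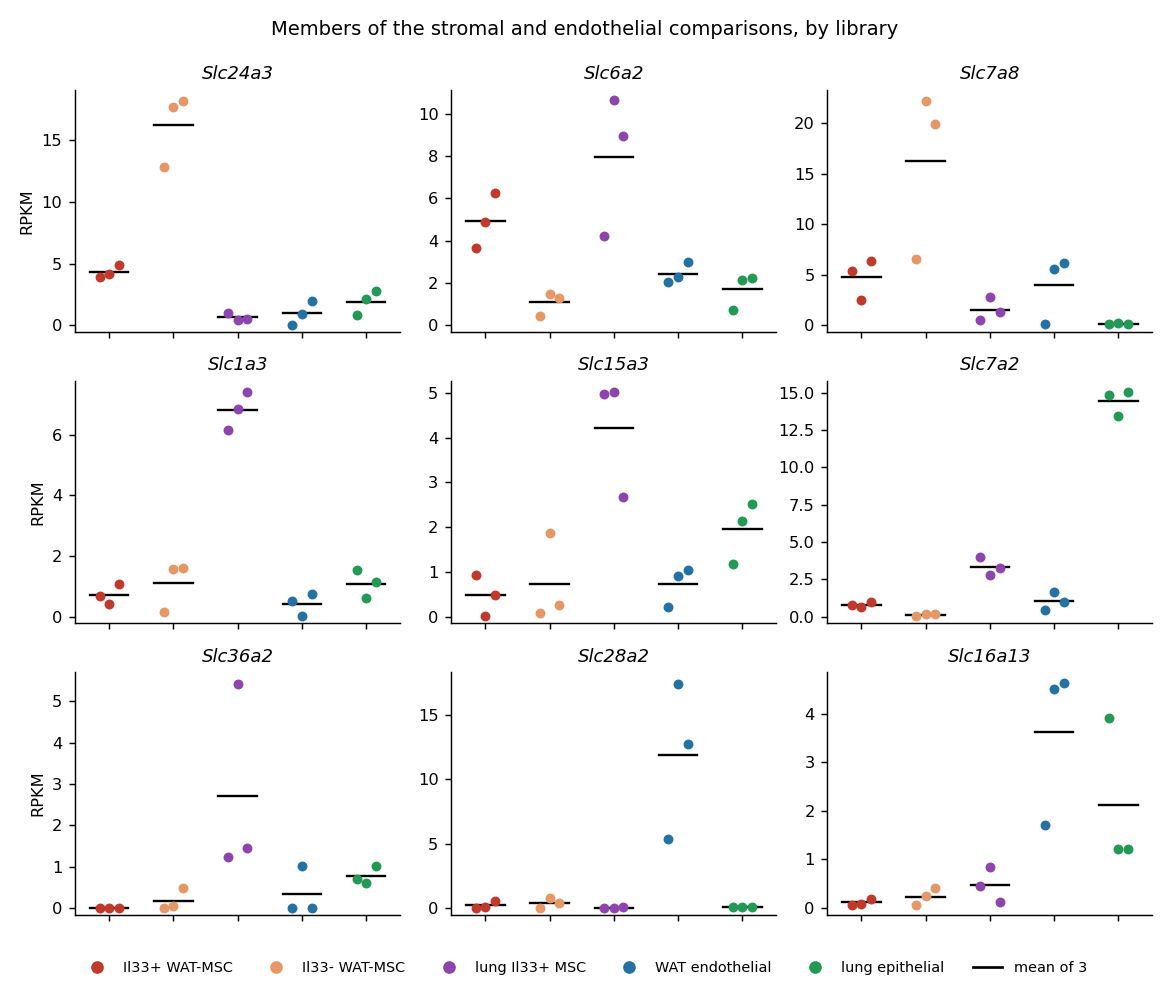
RPKM (y axes) of 9 members in 15 libraries; points are libraries and lines means of 3. Slc24a3 and Slc7a8 are highest in Il33- WAT-MSC, Slc1a3, Slc15a3 and Slc36a2 in lung Il33+ MSC, Slc28a2 in WAT endothelial cells and Slc7a2 in lung epithelial cells.

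Across all 5 populations, the highest means were spread over different members of a substrate class. For nucleosides the highest means were those of Slc29a1 (32.7 ± 14.05 RPKM) and Slc29a3 in Il33- WAT-MSC, of Slc28a2 in endothelial cells and of Slc28a3 in epithelial cells, and the Slc29a1 levels of the WAT-MSC populations overlapped. For glutamate and neutral amino acids of SLC1 they were those of Slc1a5 in Il33- WAT-MSC (57.2 ± 8.96 RPKM), Slc1a3 in lung Il33+ MSC and Slc1a4 in epithelium. Of the carriers sought by name, Slc2a3, Slc2a4, Slc7a11, Slc27a3, Slc40a1 and Slc6a4 were not analysed here.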

How the data were processed

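RNA of flow-sorted cells was sequenced by the authors as 15 libraries, and mapping was to mm10 with TopHat2 in Partek, per the submitters' processing notes. The authors deposited RPKM values for 12698 transcripts, with 2 decimals and without read counts or strand, so the depth behind a single value is unknown. RPKM divides by mapped reads, so a few abundant transcripts lower all others of a library. Columns were matched to samples by the library names in the labels, with 0 value columns left over.

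RPKM was summed per symbol. A gene entered a comparison if 3 or more of its 6 libraries reached RPKM 1. Linear models of log2(RPKM + 1) were made in limma 3.58.1 (R 4.3.3) with variances moderated along the mean level and Benjamini-Hochberg adjustment over all genes tested and a threshold of 0.05. This scale understates the change of low genes. A value after "higher by", "fell by" or "lower by" is a log2 fold change on this scale. The fit was tested on simulated data. Levels and figures used Python 3.11.15, pandas 2.3.3 and matplotlib 3.10.9. Replicates were labelled as separate samples and p-values measure only the spread between them, and with 3 libraries a group an exact permutation test cannot go below p = 0.1. Alternatives were a replicate block, the lane, all 15 libraries in one fit, other scalings, another pseudocount (0.1), other filters, the most abundant transcript and leaving out each library.

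The members and lists were chosen with earlier results of these data known. Genes were named if among the 6 largest changes in a direction past the threshold without overlap, among the 10 highest, in a fixed set, or relatives of the first. Slc6a2, Slc6a8, Slc6a14, Slc12a7, Slc22a5, Slc25a23, Slc25a24, Slc25a25, Slc27a2, Slc31a1, Slc31a2, Slc38a1 and Slc52a3 were named after their values were seen. Some genes that the rule names are not reported here. The 4 members Slc9a3r1, Slc9a3r2, Slc7a6os and Slc4a1ap are not transporters, and 18 members overlap another listed gene in RefSeq, so that reads of both cannot be told apart without strand; among the called members described these were Slc15a3, Slc16a3, Slc23a1 and Slc31a1.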

Additional observations from a re-analysis of the deposited data

How the results depend on the processing

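Groups of 3 libraries limit each fit, and depth in reads per gene was not used. In all 4 comparisons called members kept their direction under every alternative fitted. Between Il33+ and Il33- WAT-MSC the count of 1 became 2 with a replicate block, median-ratio scaling or quantile normalization, and 0 to 2 when a library was left out (0 without Il33+ replicate 1 or Il33- replicate 2 or 3, 2 without Il33- replicate 1). For Il33+ WAT-MSC over lung Il33+ MSC the count of 5 became 3 with lane as a covariate or a filter of RPKM 5 (1 of these 3 among the 5), 7 under median-ratio scaling or quantile normalization (1 higher, 6 lower), and 2 to 6 without a library (2 without lung replicate 2, 3 without lung replicate 1 or 3 or WAT replicate 1). Between endothelial cells and Il33+ WAT-MSC the count of 2 became 11 with all 15 libraries in one fit (6 higher, 5 lower), 1 with the lane, a pseudocount of 0.1 or a filter of RPKM 5, and 1 to 4 without a library (4 without endothelial replicate 1, 1 without endothelial replicate 2 or any 1 of the Il33+ WAT-MSC libraries). Between lung epithelium and lung Il33+ MSC the count of 89 became 55 under a filter of RPKM 5, which tests fewer members (69), and 69 to 90 without a library. The lung Il33+ MSC Slc35e1 value rests on replicate 1: its log2 fold change was -2.41 (adjusted p = 0.0373) and -1.25 without it (adjusted p = 0.015), and the call was lost without any 1 of the epithelial libraries (0.0672 to 0.104). Median-ratio scaling moved the median of all genes by 0.13 between endothelial cells and Il33+ WAT-MSC and moved the members highest in epithelium from 63 to 69, and the share of all genes highest there from 28.6% to 37.4%. The cause of these moves was not tested, apart from the filter. Same-numbered libraries had deviations correlated at -0.0671 to 0.155. Between the WAT-MSC populations these were 0.0439, 0.0609 and 0.106, against -0.0599 to 0.00162 for libraries of different number. Between lung epithelium and lung Il33+ MSC they were 0.0508, 0.0747 and 0.136, against -0.0706 to 0.0015. In the other comparisons the same-numbered pairs did not all lie above the rest. Deviations were taken from the mean of each group, so positive values for same-numbered pairs force negative ones on balance among the rest. The contrast between the 2 kinds of pair is thus partly built in. Whether same-numbered libraries share mice was not tested. With a replicate block Slc6a2 passed between the WAT-MSC populations (adjusted p = 0.0499), Slc7a2 was lost between fat and lung (0.0558), and in endothelial cells Slc16a13 was lost (0.0595) and Slc12a7 gained (0.0401). The block gave 2, 4, 2 and 89 members in the 4 comparisons.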
